A study of Mus musculus with 2 samples.

Results

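The genes described here belong to the DNA repair families named Rad, Xrcc, Ercc, Fanc, Msh, Parp and Brca. They were chosen by name: a probe set was included when its only gene symbol began with one of these family names followed by a digit, or was Fanca to Fancm. The rule used no measured value. It took in 127 of the 45101 probe sets on the array and 56 of the 18194 named genes. Names make imperfect families. Rad21 is a cohesin subunit, several Parp genes have roles outside repair, and Rad54l2 and Ercc6l are relatives of repair helicases.

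Expression was measured in 2 single cells from dissociated retinas of CD1 mice, an outbred strain. The cell called embryonic here came from embryonic day 12.5 (E12.5) and the newborn cell from the day of birth, postnatal day 0 (P0), with 1 cell per age and no treatment named for either. The submitters assigned both to the developing ciliary body, the rim of the eye cup that later secretes the aqueous fluid, from their expression after the arrays were read, so the assignment is not independent of the values below. Each cell's poly(A) RNA was copied, amplified by PCR and hybridised to a 3′-biased Affymetrix array, a procedure that can lose a whole transcript. A gene below background was therefore not detected, which does not show that it was absent, and with no second cell per age each difference below is a difference between 2 libraries with no replicate check and no p-value.

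DNA repair works through separate routes for separate lesions. Mismatch repair corrects copying errors, nucleotide excision repair cuts out bulky lesions such as those made by ultraviolet light, and base excision repair replaces single damaged bases and mends single-strand breaks. Double-strand breaks are closed either by end joining, which needs no template, or by homologous recombination, which copies the sister chromatid and is used mainly by cycling cells. The Fanconi anaemia pathway opens crosslinks between the strands. Developing neural tissue divides quickly, and loss of several of these genes impairs its growth.

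Signals are MAS5 values on a linear scale. A gene was called above background when its signal exceeded the limit of its array, which was the 99th percentile of 184 probe sets for genes of other tissues, such as olfactory receptors and milk proteins (251 in the embryonic cell and 347 in the newborn cell). Where a gene had several probe sets, the one with the highest mean log2 signal represents it. A gene was called higher in 1 cell at a ratio of 4 or more, with each signal first raised to its limit, and where the dimmer cell was below background the fold is given as at least that large.

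Of the 56 genes, 15 were above background in the embryonic cell, against 30.4% of all named genes, and 16 in the newborn cell, against 28.4%. As shares these are 26.8% and 28.6%, near those of all genes. Both cells expressed 11 members above background (18.7% of all genes were above it in both), and 36 members were above it in neither (59.9% of all genes). In all, 4 members were called higher in the embryonic cell, where 7.31% of all genes were, and 1 in the newborn cell, where 9.31% were. The embryonic count is 7.14% of the 56 members, near the share of all genes, and the newborn count is 1.79%, below it. A count of 1 is too small to read further. The 4 were Parp1, Msh3, Ercc8 and Xrcc5, and the 1 was Ercc6l2, which was no longer called with the arrays scaled to the hybridisation spike-ins (4 against 0).

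**Figure D1:**
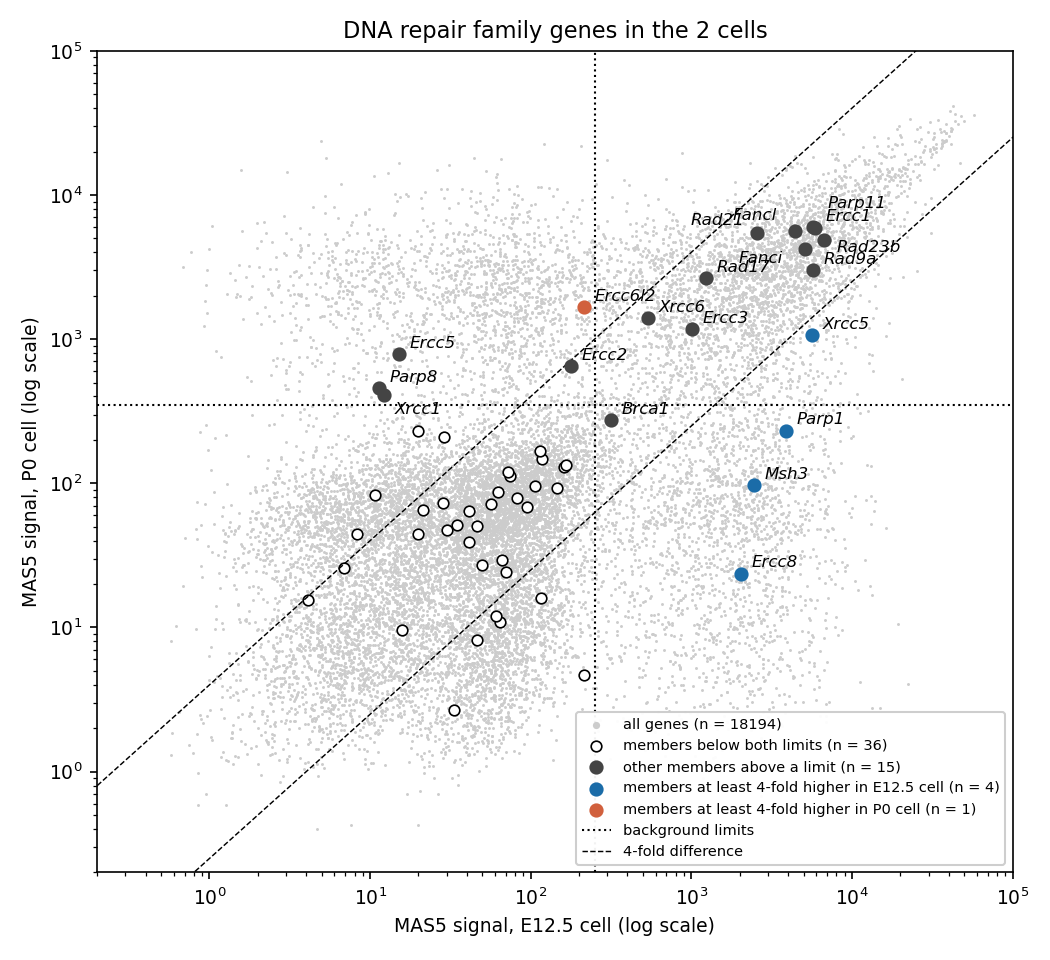
MAS5 signals of the E12.5 cell (horizontal axis, log scale) and the P0 cell (vertical axis, log scale) for all 18194 genes in grey and the 56 repair family genes as larger points, with the background limits dotted and 4-fold differences dashed. Most members lie below both limits at the lower left (36 genes), 10 of the 11 above both lie between the dashed lines, and Parp1, Msh3 and Ercc8 sit at the lower right, with a measured E12.5 signal and a P0 signal below background.

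Among the 11 members measured in both cells, the newborn to embryonic log2 ratio ran from -2.41 to 1.37 with a median of 0.06, and 10 of them (90.9%) differed by less than 4-fold. Of the 3410 genes measured in both cells, 82.5% did, with a median log2 ratio of 0.01. Over 979 genes with several probe sets measured in both cells, the log2 ratios of 2 probe sets of a gene differed with an SD of 1.18. That spread contains array error but no variation between cells. Scaling to the spike-ins moved the median log2 ratio of all shared genes to -0.86, so a member with the higher newborn signal by less than 2-fold has no stable direction.

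Of the 46 members with an entry in RefSeq's promoter table (build GRCm38.p6), stretches of 4 are printed. Those of Ercc8 and Xrcc6 are the ones shared with the neighbouring genes described below, and those of Msh3 and Parp1 belong to the members with the highest lower bounds in the embryonic cell. The motifs were chosen after the values were seen. The stretch between the start sites of Ercc8 and its divergent neighbour Ndufaf2, on the plus strand at chr13:108158626-108158737, has CCAAT on either strand in capitals. The stretch between the start sites of Xrcc6 and its divergent neighbour Desi1, on the plus strand at chr15:82016221-82016368, holds no CCAAT. The stretch upstream of Msh3, on the minus strand at chr13:92355004-92355213, has the E2F-like letters TTTGGCGC and TTTCGCGC, on either strand, in capitals. The stretch upstream of Parp1, on the plus strand at chr1:180568641-180568890, has GGGCGG on either strand in capitals.
Ercc8: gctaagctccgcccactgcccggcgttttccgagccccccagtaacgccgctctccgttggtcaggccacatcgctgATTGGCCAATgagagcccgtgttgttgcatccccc
Xrcc6: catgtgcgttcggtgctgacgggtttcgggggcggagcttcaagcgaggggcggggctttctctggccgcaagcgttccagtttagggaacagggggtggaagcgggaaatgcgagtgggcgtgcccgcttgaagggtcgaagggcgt
Msh3: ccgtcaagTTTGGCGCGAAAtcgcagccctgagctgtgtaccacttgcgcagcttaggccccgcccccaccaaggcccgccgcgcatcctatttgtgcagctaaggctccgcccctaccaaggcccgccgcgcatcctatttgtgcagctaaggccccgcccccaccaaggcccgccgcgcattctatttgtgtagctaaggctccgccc
Parp1: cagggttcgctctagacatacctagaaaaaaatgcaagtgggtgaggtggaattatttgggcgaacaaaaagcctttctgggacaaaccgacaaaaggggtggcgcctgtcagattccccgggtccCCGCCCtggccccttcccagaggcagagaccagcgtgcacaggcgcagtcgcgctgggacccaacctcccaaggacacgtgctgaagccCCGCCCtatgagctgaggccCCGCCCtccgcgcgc
The capitals in the Msh3 stretch are 2 matches on opposite strands that overlap. In the 250 bases upstream of the start, the E2F-like letters were found in 1 of the 46 members, Msh3, and in 0.759% of 27025 genes. CCAAT was found in 24 of the 46 (52.2%) and in 37.5% of all genes, and GGGCGG in 26 (56.5%) and in 35.4%. Both shorter motifs are common, and a match is a run of letters, not a measured binding site.

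Mismatch repair was represented above background by Msh3 alone of the 4 Msh genes measured here. Msh3 encodes the partner in the MutS complex that recognises larger insertion and deletion loops. Its signal was 2446 in the embryonic cell and 96.7 in the newborn cell, at least 7.05-fold higher in the embryonic cell. Its 3 other probe sets were below both limits. Msh6, whose product recognises single mismatches, gave 216 in the embryonic cell, just under the limit, and 4.71 in the newborn cell. The meiotic genes Msh4 and Msh5 were below background in both cells. None of 4 further mismatch repair genes, Exo1, Mlh3, Pms1 and Pms2, exceeded a limit.

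Nucleotide excision repair had the largest number of members above background. In the embryonic cell 4 of 8 were (50.0%, against 30.4% of all genes). The newborn cell had 5 of 8 (62.5%, against 28.4%). With 8 genes these shares are too coarse to set the family apart. Ercc1, a subunit of the nuclease that cuts 5′ of the lesion, gave 5694 in the embryonic cell and 5946 in the newborn cell. A second Ercc1 probe set gave 3825 and 4923, and the remaining ones were below both limits. The gene for its catalytic partner, Ercc4, was below both limits on all of its probe sets, the highest signals being 70.1 and 24.4. The nuclease therefore had 1 measured and 1 unmeasured subunit in each cell.

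Ercc3 and Ercc2 encode the helicases of TFIIH, the complex that opens DNA both in transcription and around a lesion. Ercc3 gave 1013 in the embryonic cell and 1172 in the newborn cell. Ercc2 gave 179 and 650, so that only the newborn cell exceeded its limit. With the 7 other TFIIH genes found among the named genes included, 5 of 9 were above background in the embryonic cell, against 30.4% of all genes. In the newborn cell 9 of 9 of these TFIIH genes were, against 28.4% of all genes. A further subunit gene, Gtf2h2, was not found among the named genes. The embryonic count includes Gtf2h3, whose signal of 255 was just over the limit of 251. The TFIIH genes measured in the newborn cell only were Ercc2, Gtf2h1 (37.7 and 811), Gtf2h4 (76.7 and 736) and Cdk7 (43.0 and 740). Mnat1, which assembles the kinase module, went the other way and was 5.48-fold higher in the embryonic cell. Both counts depend on the limit: they were 6 and 9 with it at the 95th percentile, and 4 and 7 with both limits doubled, alternatives that were added for TFIIH after its values were seen.

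Ercc5, which encodes the nuclease that cuts 3′ of the lesion, had a signal of 15.2 in the embryonic cell and 790 in the newborn cell, above background in the newborn cell only and at least 3.14-fold higher there. Rad23b encodes a stabilising partner of the damage sensor Xpc. It gave 6670 in the embryonic cell and 4886 in the newborn cell, and a second probe set gave 5668 and 4603. Its remaining probe sets disagreed with these and with each other: one gave 1773 and 5.36, the other 6.69 and 362. Xpc itself was below both limits. Cetn2, the small calcium-binding partner of Xpc, was at least 14.2-fold higher in the embryonic cell.

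Ercc8 and Ercc6 act where a lesion has stalled RNA polymerase. Ercc8, a substrate receptor of a ubiquitin ligase, gave 2050 in the embryonic cell and 23.7 in the newborn cell, at least 5.91-fold higher in the embryonic cell. Its other 3 probe sets were below both limits in both cells. Ercc6 was not measured in either. Uvssa, which acts in the same step, was above background in both cells, at 613 and 3185, and was 5.19-fold higher in the newborn cell.

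Ndufaf2, an assembly factor of respiratory complex I, starts 113 bp from Ercc8 on the opposite strand, the stretch printed above. Its signals were 4290 in the embryonic cell and 93.5 in the newborn cell, at least 12.4-fold higher in the embryonic cell, the same side as Ercc8. Xrcc6 had such a pair too: Desi1, 149 bp away, gave 14.3 and 1548, with Xrcc6 at 540 and 1395. Both genes of this pair had the higher signal in the newborn cell, but the difference in Xrcc6 was under 4-fold.

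Head-to-head neighbours within 1000 bp were found for 13 members, and in several the genes of the pair did not match. Xrcc4 was below both limits while Tmem167, 59 bp away, gave 4958 and 4006, and Rad9b was below both while Vps29, 123 bp away, gave 6218 and 9940. Brca1 (317 and 275) and Nbr1, 152 bp away (1059 and 6978), also differed. Of all genes called higher in the embryonic cell that had such a neighbour, 15.4% (26 of 169) had a neighbour called the same way and 10.1% one called the opposite way. For genes called higher in the newborn cell, these shares were 11.2% (22 of 197) and 8.63%. Across all genes, 7.31% were called higher in the embryonic cell and 9.31% in the newborn cell. Of the 5 called members, Ercc8 is the only one with a neighbour among the 13 pairs compared here.

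Single-strand break repair had a sensor gene measured only in the embryonic cell and a scaffold gene measured only in the newborn cell. Parp1 encodes the polymerase that marks breaks with poly(ADP-ribose). Its signal was 3908 in the embryonic cell and 232 in the newborn cell, at least 11.3-fold higher in the embryonic cell. A second probe set gave 1443 and 77.8 and another 1495 and 78.5, both at least 4-fold higher in the embryonic cell as well (at least 4.16-fold and at least 4.31-fold), and the remaining one was below both limits. Parp1 was thus the only called member whose call was repeated by another probe set.

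Xrcc1, the scaffold that gathers repair enzymes at a marked break, gave 12.3 in the embryonic cell and 409 in the newborn cell. It exceeded its limit only in the newborn cell, by a small margin, and was not called. The enzymes it gathers were measured in both cells in the case of Lig3 (2637 and 1669) and Polb (2199 and 2315). Aptx, which removes adenylate from broken ends, was at least 18.2-fold higher in the newborn cell. Parg, which removes poly(ADP-ribose), gave 3807 and 971, a 3.92-fold difference.

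Of 11 Parp genes, 2 were above background in each cell (18.2%, against 30.4% and 28.4% of all genes), and 72.7% were below both limits, against 59.9% of all genes. With 11 genes these shares are too coarse to set the family apart. Parp11, a mono-ADP-ribosyltransferase, gave 5878 in the embryonic cell and 5859 in the newborn cell, with a second probe set below both limits. Parp8 gave 11.3 and 458, above background in the newborn cell only and not called. The other 8, Parp2, Parp3, Parp4, Parp6, Parp9, Parp12, Parp14 and Parp16, had no probe set above 106 in the embryonic cell or 113 in the newborn cell. Parp2 is the closest functional relative of Parp1.

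The Ku heterodimer, which binds broken ends and starts end joining, showed its subunit genes on opposite sides. Xrcc5, the gene of Ku80, gave 5676 in the embryonic cell and 1068 in the newborn cell, 5.32-fold higher in the embryonic cell. Xrcc6, the gene of Ku70, gave 540 and 1395, 2.58-fold higher in the newborn cell. Their log2 ratios differed by 3.78, a quantity that multiplying all signals of an array by a constant cannot change, though other processing can. They are the lowest and the highest of the 11 members measured in both cells, and the pair was set side by side after the values were seen, so the size of the gap is a description only. Xrcc5 has 1 probe set, and the second probe set of Xrcc6 was below both limits.

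Prkdc, the kinase recruited by Ku, was measured in both cells (3698 and 2197). The genes of the ligation step were not: Xrcc4, Lig4 and Nhej1 were below both limits. Prkdc, Lig4 and Nhej1 are among 6 listed end joining genes outside the name rule. Among these 6, 1 (16.7%) was above background in the embryonic cell, Prkdc, against 30.4% of all genes. In the newborn cell 2 (33.3%) were, Prkdc and Polm, against 28.4%. Polm, a gap-filling polymerase, was at least 5.44-fold higher in the newborn cell.

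Homologous recombination genes were mostly below background. Of 11 members, 1 was above background in the embryonic cell and 0 in the newborn cell, against 30.4% and 28.4% of all genes. The 1 was Brca1, with 317 in the embryonic cell and 275 in the newborn cell, too close to the limits for a fold. The other 10 were Brca2, Rad50, Rad51ap1, Rad51b, Rad51c, Rad51d, Rad52, Rad54b, Rad54l and Xrcc3. Over their 24 probe sets the highest signals were 122 in the embryonic cell and 120 in the newborn cell. Of 24 other listed recombination genes, 10 (41.7%) were above background in the embryonic cell and 7 (29.2%) in the newborn cell, the latter near the share of all genes. Nbn, the Rad50 partner that relays the break to the checkpoint, was at least 8.75-fold higher in the embryonic cell. The helicase genes Recql (at least 8.91-fold) and Recql5 (at least 8.89-fold) and the nuclease gene Slx1b (at least 10.8-fold) were higher in the newborn cell.

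**Figure D2:**
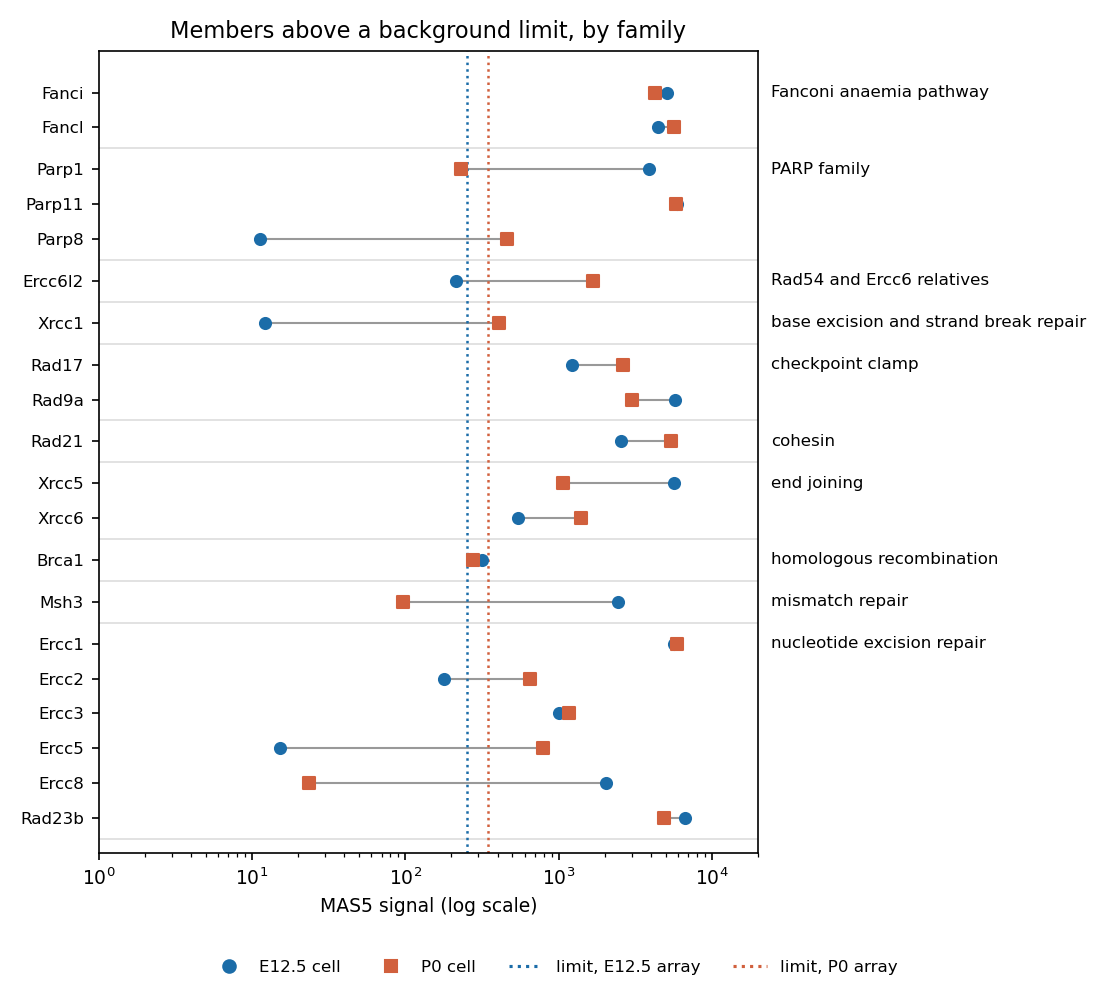
MAS5 signals (log scale) of the 20 members above a background limit, grouped by family, with a circle for the E12.5 cell, a square for the P0 cell and the limits of the arrays dotted. Xrcc5 and Xrcc6 point in opposite directions, Ercc1, Parp11 and Fancl are nearly level, and Parp1, Msh3 and Ercc8 have their P0 signal below the limit.

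Of the Fanconi genes, 2 of 9 were above background, both in both cells (22.2%, near the 30.4% and 28.4% of all genes). Fancl, the ubiquitin ligase subunit, gave 4416 in the embryonic cell and 5643 in the newborn cell. Fanci, part of the clamp that the ligase modifies, gave 5086 and 4246. The genes of the other core subunits, Fanca, Fancb, Fancc, Fance, Fancf, Fancg and Fancm, were below both limits on the probe set used. One further Fancc probe set gave 29.9 and 477, which exceeds the P0 limit, but another probe set had the higher mean log2 signal. Fancd2, the partner of Fanci in the clamp, was not measured (122 and 125), nor was the conjugating enzyme gene Ube2t (73.0 and 64.1). Among 8 listed Fanconi partners outside the rule, Usp1, which removes the ubiquitin, was 4.66-fold higher in the newborn cell, and the core-associated genes Faap100 (at least 4.48-fold) and Faap24 (at least 6.14-fold) were also higher there.

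The sensor that signals damage to the cell cycle is a ring of Rad9, Hus1 and Rad1 proteins that Rad17 loads onto DNA. Rad9a gave 5701 in the embryonic cell and 3012 in the newborn cell, and Rad17 gave 1232 and 2647. Both were measured in both cells and differed by less than 4-fold. Rad1 was below both limits (94.5 and 68.2), as was Rad9b. Hus1 gave 756 and 31.0, above background in the embryonic cell only. Of 15 listed checkpoint genes outside the name rule, Hus1 included, 9 (60%) were above background in the embryonic cell, against 30.4% of all genes. In the newborn cell 3 (20%) were, against 28.4%. Among these 15, 4 were called higher in the embryonic cell and 0 in the newborn cell, against 7.31% and 9.31% of all genes. Trp53bp1, a break-binding adaptor, was 9.14-fold higher in the embryonic cell. Topbp1, which activates the checkpoint kinase (at least 8.16-fold), the fork protection gene Tipin (at least 6.11-fold) and the ubiquitin ligase gene Rnf168 (at least 4.58-fold) were higher there too.

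Rad18, the ubiquitin ligase that switches stalled forks to lesion bypass, was below both limits on all 4 probe sets. Its conjugating enzyme genes were detected. Ube2b gave 2216 in the embryonic cell and 4430 in the newborn cell, and Ube2a was at least 11.0-fold higher in the newborn cell. Polh, the bypass polymerase recruited by this step, was at least 12.7-fold higher in the newborn cell, and Rev1, another bypass polymerase, at least 5.35-fold higher in the embryonic cell.

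Rad21, the subunit that closes the cohesin ring, gave 2568 in the embryonic cell and 5431 in the newborn cell. A second probe set gave 2183 and 3824 and one more 11.9 and 597. As deposited all had the higher signal in the newborn cell, and the first kept the higher signal in the newborn cell with spike-in scaling while the second did not. The ring's other subunit genes differed among themselves. Smc3 was 6.11-fold higher in the embryonic cell (7127 and 1166), Smc1a was above background in the embryonic cell only (1361 and 208), and Stag1 was 6.97-fold higher in the newborn cell (607 and 4231).

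**Figure D3:**
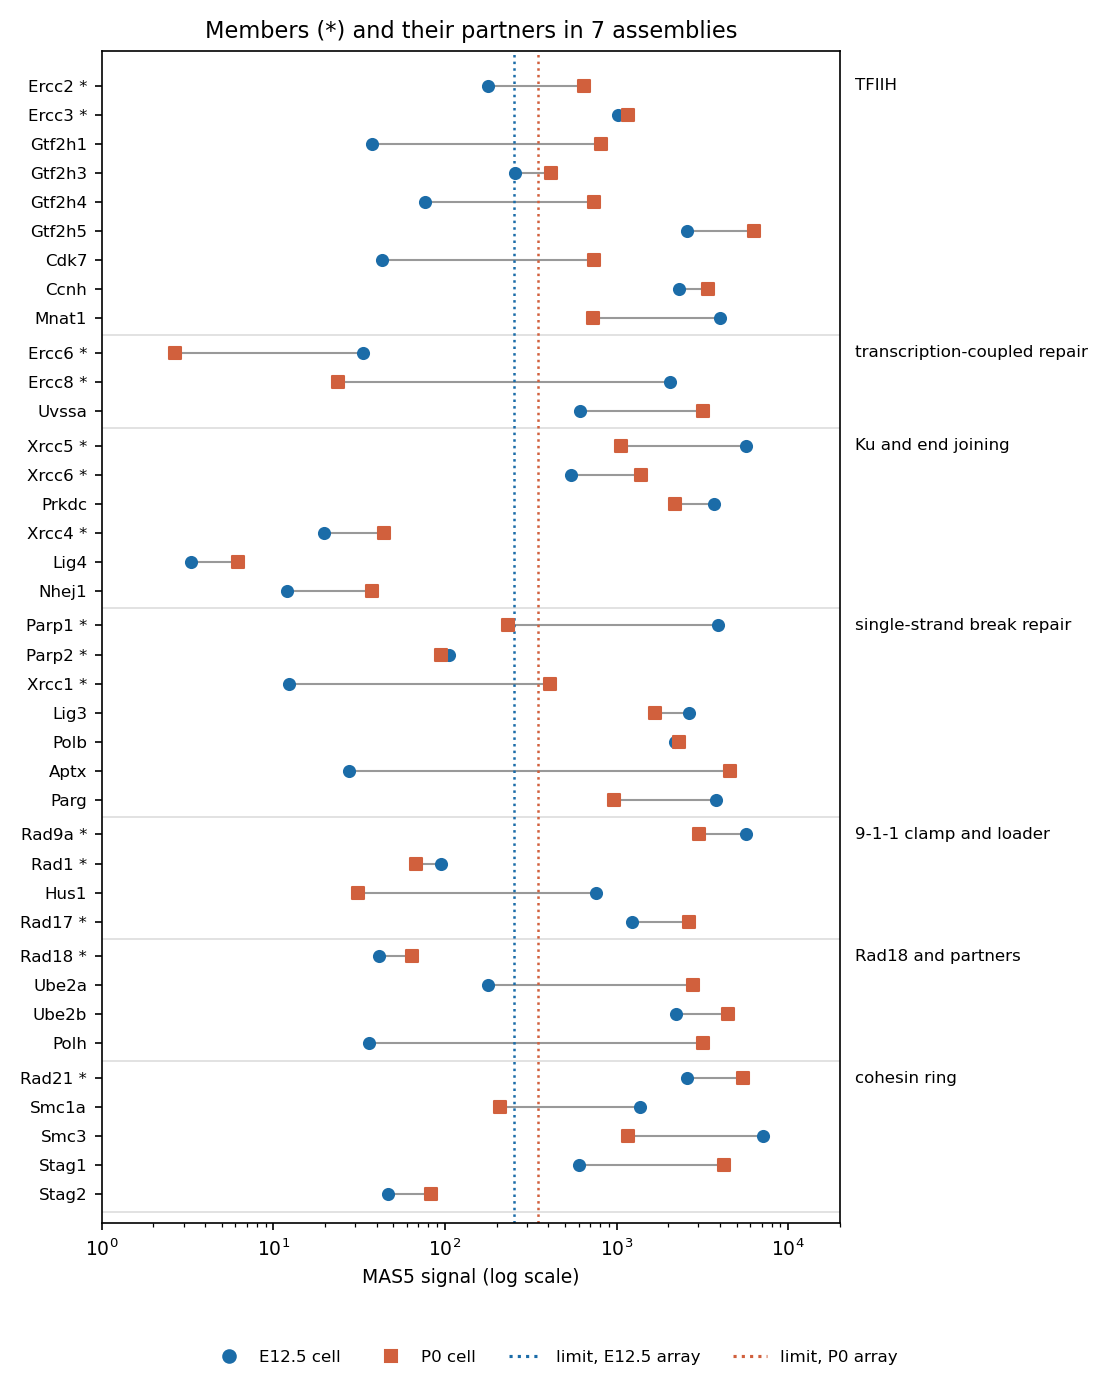
MAS5 signals (log scale) of members, marked with an asterisk, and their partner genes in 7 assemblies, with a circle for the E12.5 cell, a square for the P0 cell and the limits dotted. All 9 TFIIH genes shown lie above the limit in the P0 cell, while Xrcc4, Lig4 and Nhej1 lie below it in both cells.

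Ercc6l2, a relative of Ercc6 with a helicase domain, was the one member called higher in the newborn cell. Its signal was 215 in the embryonic cell, under the limit, and 1672 in the newborn cell, at least 6.65-fold higher there. Its other 4 probe sets were below both limits. Ercc6l, a mitotic helicase gene, and Rad54l2, a chromatin remodeller gene, were not detected.

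Agreement between probe sets limited several of these values. Of the 40 members with more than 1 probe set, 15 had at least 1 above a limit, and for 11 of these only 1 was. Msh3, Ercc8 and Ercc6l2 are among the 11, so each of their calls rests on a single probe set. So does the call of Xrcc5, which has only 1 probe set and is not among the 40. The rest of the 11 are Brca1, Ercc2, Ercc5, Fancc, Fanci, Fancl, Parp11 and Xrcc6. All probe sets of a gene read the same amplified cDNA.

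**Figure D4:**
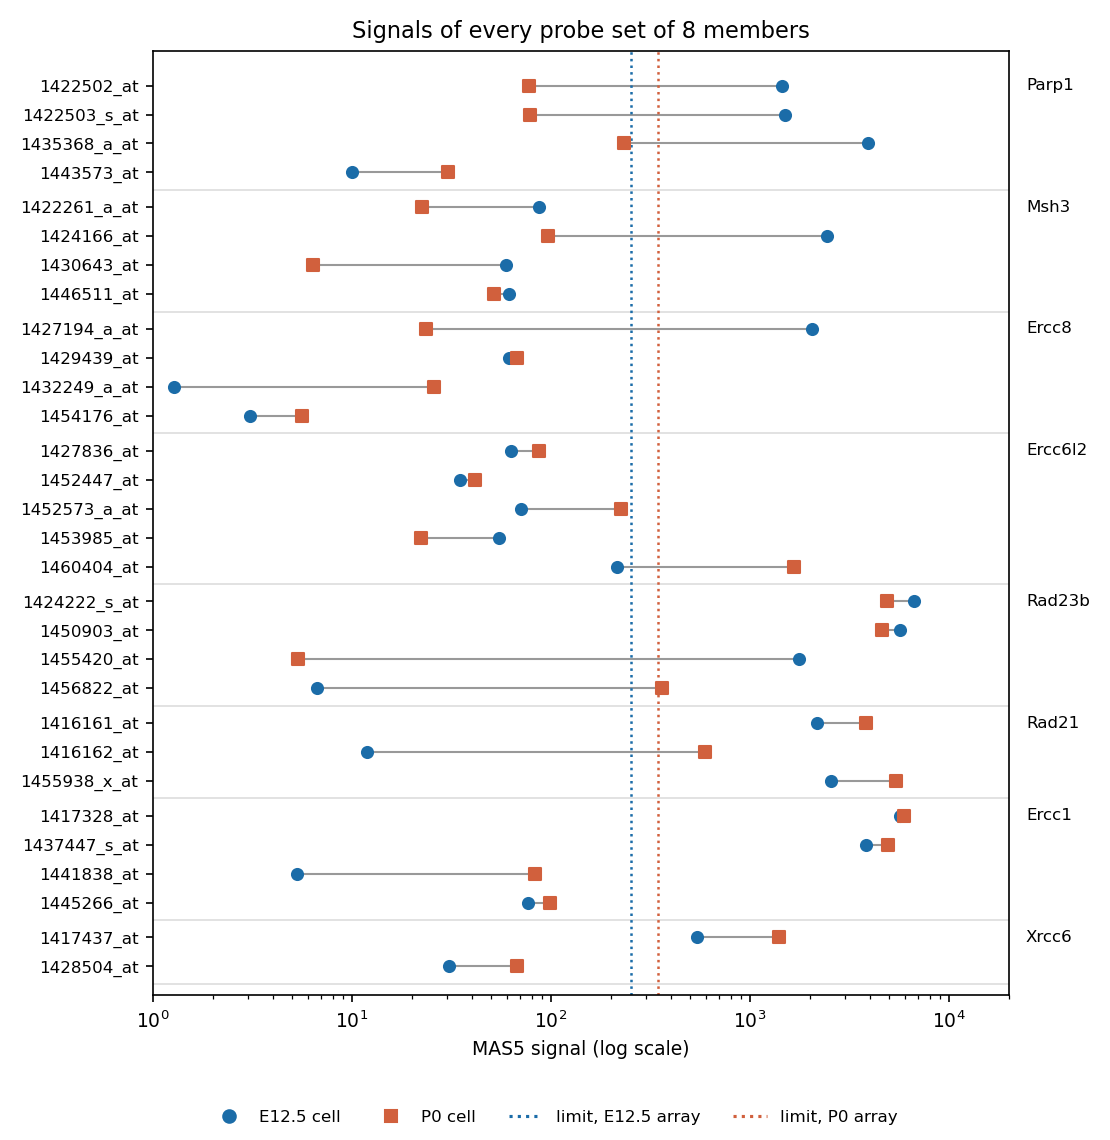
MAS5 signals (log scale) of every probe set of 8 members, with a circle for the E12.5 cell, a square for the P0 cell and the limits dotted. For Parp1, 3 of the 4 probe sets show the same difference, whereas Rad23b has probe sets that are level, higher in the E12.5 cell and higher in the P0 cell.

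Across the 108 repair genes listed outside the name rule, 52 were above background in the embryonic cell (48.1%, against 30.4% of all genes) and 40 in the newborn cell (37.0%, against 28.4%). Of the 108, 13 were called higher in the embryonic cell, a larger share than the 7.31% of all genes, and 12 in the newborn cell (11.1%, against 9.31%). The base excision list had 11 of 19 above background in the embryonic cell and 5 of 19 in the newborn cell. Its replication-linked members Lig1 (at least 16.8-fold) and Fen1 (at least 7.04-fold) and the uracil glycosylase gene Ung (at least 9.11-fold) were higher in the embryonic cell. Rpa2, a single-strand binding subunit (at least 4.23-fold), and Hltf, a fork remodeller (at least 5.12-fold), were also higher there. Ube2v2, which helps build ubiquitin chains at stalled forks, was at least 37.5-fold higher in the newborn cell.

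S-phase genes differed between the cells, while 15 and 16 members were above background. Among 22 genes of S phase, 17 exceeded the limit in the embryonic cell (77.3%, against 30.4% of all genes). In the newborn cell 6 did (27.3%, against 28.4%). Among these 22, 10 were called higher in the embryonic cell and 0 in the newborn cell, against 7.31% and 9.31% of all genes. Of 22 genes of G2 and mitosis, 1 and 2 were above the limits (4.5% and 9.1%), and 0 were called either way. The part of the S-phase genes in the repair gene differences was not tested. Markers of the labelled tissue were detected, as the submitters' assignment by expression implies: 7 and 6 of 10 ciliary margin genes, 4 and 5 of 5 ciliary body genes and 7 and 7 of 7 progenitor genes were above background in the embryonic and the newborn cell. Of 8 neuron and photoreceptor genes, Tubb3 alone was above it (3783), in the embryonic cell. In the newborn cell, 2 of 5 mesenchymal genes, Col1a2 (2653) and Pdgfra (3088), and 1 of 4 vascular genes, Rgs5 (833), were above it, against 0 in the embryonic cell. Pigment cell, microglial, red cell and lens markers were below the limits in both. The part of these markers in the repair gene values was not tested.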

How the data were processed

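Per the labels and the submitters' processing notes, the authors computed the deposited intensities with MAS5, 1 linear value per probe set and cell, scaled array by array; the values bear this out, with a mean of 500.0 in both after leaving out 2% at each end. No detection calls or replicates were used here, and the number of arrays limits the precision.

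Of 45101 probe sets, 34958 had 1 gene symbol in the platform annotation, 932 several and 9211 were not listed. Symbols other than the members' own were updated by gene identifier to GRCm38.p6. No build is named for the signals. Background limits came from 184 probe sets of genes for taste, vomeronasal and olfactory receptors, keratin-associated proteins, protamines, defensins, caseins, urinary proteins, prolactin relatives, zona pellucida and seminal vesicle proteins. All members above a limit are named, and other repair genes when called. The members and lists were chosen with earlier results of these data known, and the assemblies, motifs and neighbours after the values were seen. No test between cells was possible. The scoring was run on simulated data, with large changes placed only on genes far above background and the same limit for both arrays. That run checked the code and could not show how accurate the calls are for these 2 cells. Python 3.11.15, numpy 2.4.6 and pandas 2.3.3 were used. Alternatives covered the limit, scaling, probe set choice and filter.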

Additional observations from a re-analysis of the deposited data

How the results depend on the processing

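No paired analysis was possible because each age has 1 cell. Xrcc5 kept its call under all 8 alternatives, Parp1 under 7, Ercc8 and Msh3 under 6 and Ercc6l2 under 5. Xrcc5 has 1 probe set, so the alternatives in probe set choice could not change its signals. With the mean over probe sets, 9 members were above background in the embryonic cell in place of 15 and 1 was called higher there in place of 4, because probe sets below background enter the mean; Ercc8 and Msh3 then had a log2 ratio of 0.46, the ratio of the limits, in place of -2.56 and -2.82. With the limit at the 95th percentile, 27 members were above it in the newborn cell in place of 16 and 2 were called higher there in place of 1. With bacterial controls, 24 and 28 members were above the limit in the embryonic and the newborn cell and 3 were called higher in the newborn cell. With both limits doubled, 2 were called higher in the embryonic cell and 0 in the newborn cell. With spike-in scaling 0 were called higher in the newborn cell, and the P0 share of calls among all genes was 33.4% in place of 56.0%. With a pseudocount and no filter, 4 were called higher in the newborn cell: Ercc5, Ercc6l2, Parp8 and Xrcc1. The median log2 ratio over all 56 members was 0.46, which is the ratio of the limits because most members were below both. Signals near the limits are not resolved.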

Other observations

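Targets of the tumour suppressor p53, the transcription factor activated by DNA damage, were described for the same 2 cells. Across all genes, 7.31% were called higher in the embryonic cell and 9.31% in the newborn cell. Of 17 listed targets, 2 (11.8%) were above background in the newborn cell, against 28.4% of all genes. In the embryonic cell 5 (29.4%) were, near the 30.4% of all genes. All 5 were called higher in the embryonic cell: the p53 inhibitor gene Mdm2 (1951 in the embryonic cell and 64.7 in the newborn cell, at least 5.63-fold), the cyclin G gene Ccng1 (7396 and 741, 9.98-fold), Trp53inp1 (2672 and 134, at least 7.70-fold), the RNA-binding protein gene Zmat3 (1610 and 59.0, at least 4.64-fold) and the antiproliferative gene Btg2 (2791 and 18.3, at least 8.05-fold). Sesn1, a regulator of nutrient signalling, was at least 26.7-fold higher in the newborn cell (111 and 6710). Cdkn1a, the cell cycle inhibitor gene, was below both limits (105 and 61.8), as were Gadd45a, Gadd45b, Gadd45g, Bbc3 and Pmaip1. Several of these genes respond to other signals as well, and the list was chosen with earlier results of these data known.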
